A study of Mus musculus with 8 samples.

Results

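The genes described here are the cytosolic ribosomal protein genes of mouse visceral white adipose tissue (vWAT). They were chosen by name: protein-coding genes whose Ensembl identifier maps to a mouse symbol beginning with Rpl or Rps and a number, or to Rplp0, Rplp1, Rplp2 or Rpsa, without processed pseudogenes (symbols with -ps) and the Rps6k kinases. This gave 86 of the 31053 genes in the count table, 52 with large subunit symbols and 34 with small subunit symbols. The rule uses no expression value, but it was set with earlier results of these data known. Of the 52 large subunit symbols 46 are the usual subunits and 6 are relatives of a usual subunit, and of the 34 small subunit symbols 31 are the usual subunits and 3 are relatives or a binding protein.

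RNA was sequenced from vWAT of 4 wild-type (WT) and 4 KIKO mice, with 1 library per mouse. KIKO mice are a knock-in and knock-out model of Friedreich's ataxia, a neurodegenerative disease that also affects metabolism, and they carry 1 knocked-in and 1 knocked-out allele in every cell and not in adipocytes alone. The WT mice were C57BL/6 littermates, and all mice were males aged 8 months, with epididymal fat taken as the depot. The comparison asks how the fat of KIKO mice differs from that of WT mice. The tissue was sequenced whole, so adipocytes and the stromal, vascular and immune cells between them contributed to every value.

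A cytosolic ribosome is built from a large and a small subunit, each an RNA core covered by many proteins that are made in nearly equal amounts. The mRNAs of these proteins are short, abundant and begin with an unbroken run of C and T, the terminal oligopyrimidine (TOP) tract, through which mTOR and the RNA-binding protein LARP1 adjust their translation and stability together. Since every cell type needs ribosomes, the level of these mRNAs is usually steady between animals, and most of the genes have many processed copies elsewhere in the genome.

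Around the annotated starts of the genes that the results turn on, the run of C and T varied in length. It had 21 bases in Rpl7a, 10 in Rplp2 and Rps6 and 9 in Rps27, but 6 in Rpl37 and 5 in Rpl36a and Rpsa, near the median of 5 over all promoters. The lines below give 30 bases on the strand of the gene, 5′ to 3′, from the RefSeq annotation of GRCm38.p6, with the longest run of C and T within 25 bases either side of the annotated start in capitals. Rpl7a is shown as an example of a long tract, Rps27, Rpl36a and Rpl37 because they passed the test described below, Rpsa because it had the lowest fold change, and Rplp2 and Rps6 because their roles are described.
Rpl7a, chr2:26910788-26910817, plus strand: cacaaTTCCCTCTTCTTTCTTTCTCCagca
Rps27, chr3:90213632-90213661, minus strand: ttccgctttcgCTCCTTTCCggcggtgacg
Rpl36a, chrX:134585649-134585678, plus strand: gcaccgcctataaaCTTCCgttgcggctct
Rpl37, chr15:5116588-5116617, plus strand: cgccggaagtagTTTCCTgggcggaagctt
Rpsa, chr9:120127759-120127788, plus strand: tttaaggacgtcaTTTCCggccgcccgtcc
Rplp2, chr7:141447636-141447665, plus strand: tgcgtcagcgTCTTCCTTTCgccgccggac
Rps6, chr4:86857349-86857378, minus strand: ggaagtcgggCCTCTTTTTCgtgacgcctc
RefSeq promoters were found for 66 of the 86 genes, 78 promoters in all. A run of at least 8 C or T stood near the start in 34 of them (43.6%), in 48.9% of the large subunit and 35.5% of the small subunit promoters, against 19.7% of all 32851 promoters. The letters CCGGAAG, the core bound by ETS factors such as GABPA, were found on either strand in 34.6% of the members' 300-base windows and in 8.86% of all windows. The letters AAGATGG, the core of the YY1 motif, were found on either strand in 15.4% and in 6.34%. These are matches of letters at annotated starts, which need not be the starts used in this tissue.

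Ribosomal protein mRNAs of both subunits stood slightly higher in KIKO than in WT vWAT, with small fold changes in most genes and few that passed the test. Of the 86 genes 83 had enough counts to be tested. Of 49 large subunit genes 43 had a log2 fold change above 0, and of 34 small subunit genes 33 did, whereas 49.0% of all 11080 tested genes did. The median log2 fold change was 0.27 in the large subunit, a fold of 1.21, with quartiles of 0.11 and 0.38. In the small subunit it was also 0.27, a fold of 1.20, with quartiles of 0.15 and 0.42, beside -0.01 over all tested genes. Of these genes, 3 passed edgeR's quasi-likelihood test at an adjusted p (Benjamini-Hochberg over all 11080 genes) under 0.05: Rpl36a and Rpl37 in the large subunit and Rps27 in the small subunit, all higher. No ribosomal protein gene passed in the lower direction. Over all genes 0.28% passed as higher and 0.397% as lower, 75 genes together.

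**Figure D1:**
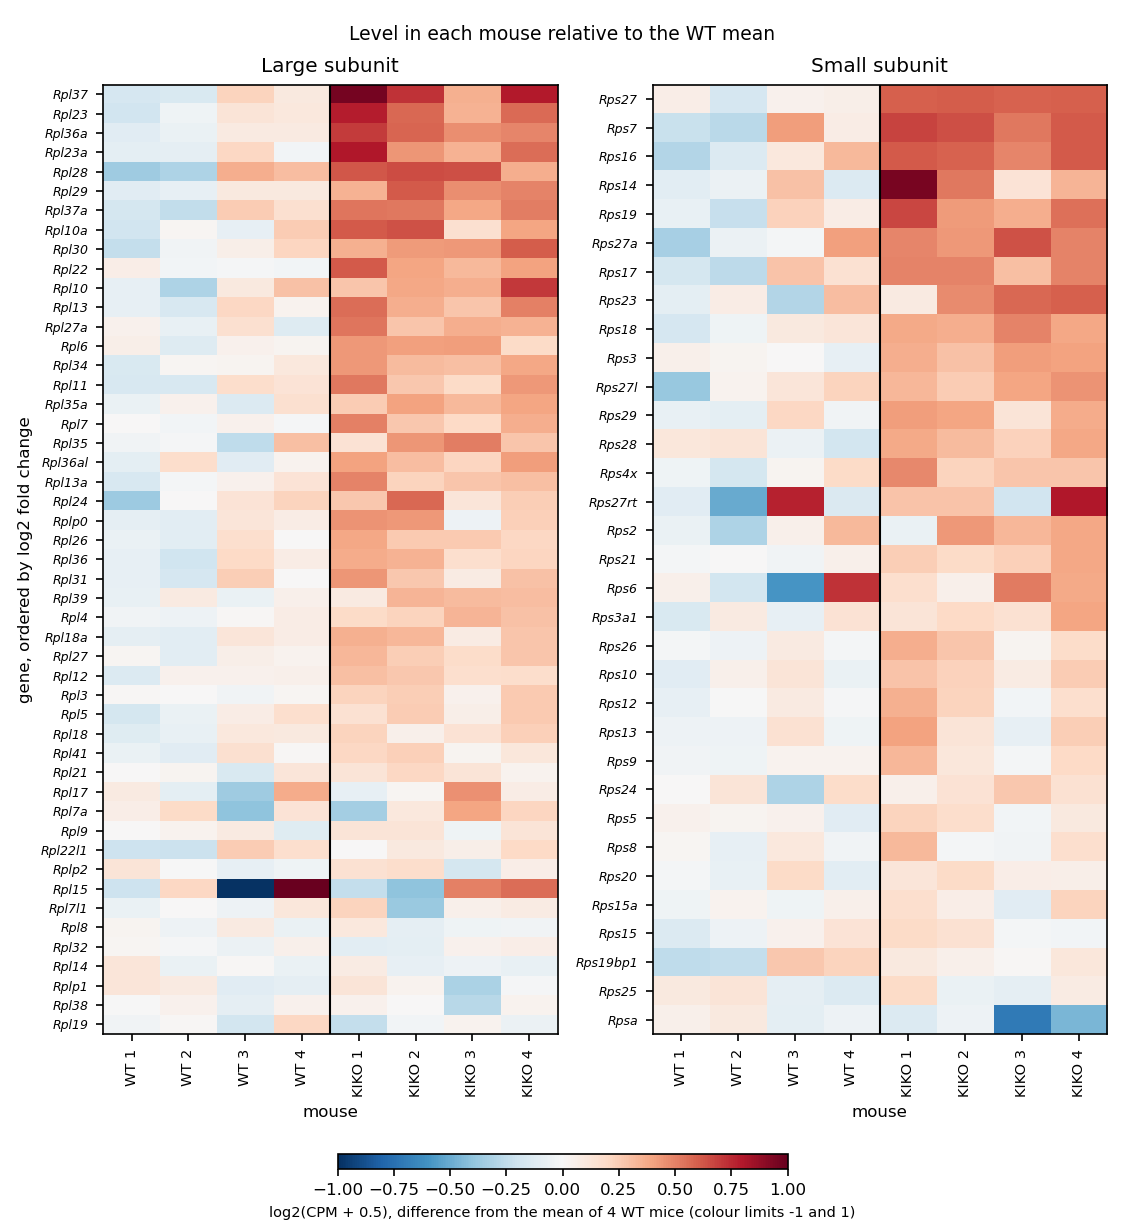
Each row is 1 of 82 tested ribosomal protein genes, large subunit on the left and small subunit on the right, ordered by log2 fold change, and each column is 1 mouse. Colour gives the difference of log2(CPM + 0.5) from the mean of the 4 WT mice. Red fills most of the 4 KIKO columns, KIKO 3 is the palest of them, and Rpsa is the blue row at the foot of the small subunit.

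The shift was seen in each KIKO mouse. The level of a gene in a mouse was compared with its WT mean on a log2 scale of counts per 1000000 (CPM). The median of this difference over the large subunit genes was 0.30, 0.27, 0.20 and 0.28 in KIKO mice 1 to 4, and -0.08, -0.05, 0.06 and 0.08 in WT mice 1 to 4. Over the small subunit genes it was 0.33, 0.24, 0.19 and 0.38 in KIKO mice and -0.07, -0.05, 0.07 and 0.06 in WT mice. The groups did not overlap in either subunit, and the KIKO and WT mice nearest to each other were KIKO 3 and WT 3 or WT 4. Of the 83 genes 76, 74, 66 and 77 stood above the WT mean in KIKO mice 1 to 4, against 24, 28, 56 and 60 in WT mice 1 to 4. KIKO 3 held the lowest KIKO value of 47 genes and KIKO 1 the highest of 42, and among WT mice the highest value lay in WT 3 or WT 4 for 68 genes.

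Counted gene by gene, all 4 KIKO mice lay above all 4 WT mice in 24 of the 49 large subunit genes (49.0%) and in 13 of the 34 small subunit genes (38.2%). The background over all tested genes was 3.89%. The opposite order was found in no ribosomal protein gene and in 4.56% of all genes. At an unadjusted p under 0.05, 27 large and 16 small subunit genes were higher, against a background of 7.13%, and 1 gene, Rpsa, was lower. These genes are read by the same libraries and vary together, so the counts describe 8 mice and are not that many separate observations. In whole tissue, more RNA per cell and more cells rich in these mRNAs cannot be told apart.

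Rps27 (ENSMUSG00000090733, chromosome 3, 90212522 to 90213651, minus strand), a small subunit protein with a zinc finger, had 227, 193, 223 and 226 CPM in WT mice 1 to 4 and 329, 330, 326 and 327 CPM in KIKO mice 1 to 4. The KIKO mice lay almost on 1 value, well above every WT mouse, and WT 2 was the lowest of the WT mice. The mean was 217 ± 16.5 CPM in WT mice and 328 ± 1.64 CPM in KIKO mice (SD, n = 4 each), and the log2 fold change was 0.59 with a standard error (SE) of 0.11 and an adjusted p of 0.0326 by edgeR. Almost all of the mRNA, 98.5% of its windows of 75 bases, the read length, occurs in a transcript of another gene too, so reads of Rps27 and of its copies cannot be separated with certainty.

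Rpl36a (ENSMUSG00000079435, chromosome X, 134585654 to 134588062, plus strand), a protein near the site where deacylated tRNA leaves, had 272, 280, 313 and 313 CPM in WT mice and 478, 440, 406 and 413 CPM in KIKO mice. The lowest KIKO mouse was above the highest WT mouse by more than the range of the WT mice. The log2 fold change was 0.56 (SE 0.12, adjusted p = 0.0442 by edgeR). Of its 75-base windows 84.6% are shared with another gene. Rpl37 (ENSMUSG00000041841, chromosome 15, 5116645 to 5119140, plus strand), a zinc finger protein of the large subunit, had 569, 575, 744 and 683 CPM in WT mice and 1243, 1057, 816 and 1104 CPM in KIKO mice. Its groups did not overlap either, but KIKO 3 lay close to WT 3. The log2 fold change was 0.72, the highest of the 83 genes, with a standard error of 0.15 and an adjusted p of 0.0442 by edgeR, and 25.8% of its windows are shared.

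With 1 mouse at a time left out, all 3 genes remained higher in KIKO mice, but their calls did not all hold. The log2 fold change ranged from 0.54 to 0.62 for Rps27, from 0.51 to 0.59 for Rpl36a and from 0.63 to 0.82 for Rpl37. At the threshold, Rps27 passed without WT 1 or WT 3, Rpl36a only without WT 3, and Rpl37 without WT 3 or KIKO 3. Without WT 2, WT 4 or KIKO 4 no gene of all those tested passed, with 1344, 1533 and 1328 genes at an unadjusted p under 0.05 by edgeR. Without WT 3, 11 large and 8 small subunit genes passed as higher, against 2.53% of all tested genes. With all mice, DESeq2 passed 13 large and 8 small subunit genes as higher, beside 2.03% of the 6616 genes to which it gave an adjusted p, and none as lower.

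**Figure D2:**
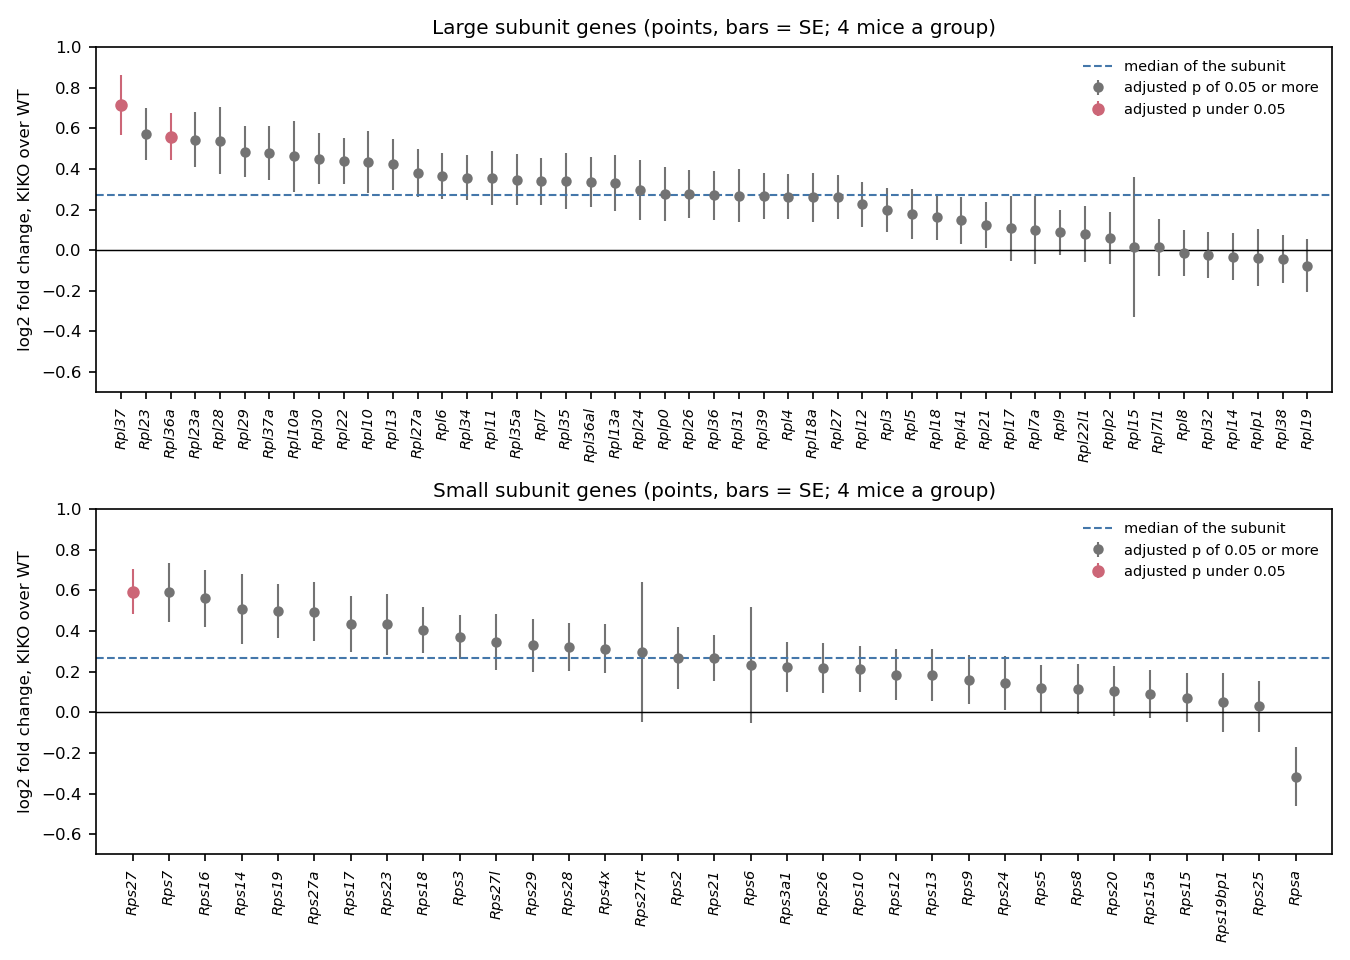
Points are the log2 fold change of KIKO over WT of the same 82 genes and bars its standard error from edgeR (4 mice a group), large subunit above and small subunit below. Only Rpl37, Rpl36a and Rps27 passed at an adjusted p under 0.05, most of the others lie near the dashed subunit median of 0.27, and Rpsa, at -0.32, stands apart at the right end.

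Several genes came close to the threshold. Rpl23, a large subunit protein that can also bind MDM2, had 268, 296, 334 and 329 CPM in WT mice and 527, 456, 389 and 453 CPM in KIKO mice, with the groups apart. Its log2 fold change was 0.57 (SE 0.13, adjusted p = 0.0593 by edgeR). Rps16, at 0.56, Rps7, at 0.59, and Rpl23a, at 0.54, had adjusted p values of 0.0758, 0.0774 and 0.0782. None of these 4 passed.

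The stalk proteins Rplp0, Rplp1 and Rplp2 recruit the GTPases of translation to the large subunit. Rplp0 had a log2 fold change close to the large subunit median, and Rplp1 and Rplp2 had values below it. Rplp0, the base of the stalk, had 296, 293, 343 and 332 CPM in WT mice and 430, 426, 304 and 372 CPM in KIKO mice. Its groups overlapped because KIKO 3 was as low as the WT mice, and the log2 fold change was 0.28 (SE 0.13, adjusted p = 0.319). Rplp1 had 3086, 3020, 2621 and 2663 CPM in WT mice and 3107, 2903, 2277 and 2820 CPM in KIKO mice, with full overlap. Its log2 fold change was -0.04 (SE 0.14, adjusted p = 0.922), and the sign turned when WT 1 or KIKO 3 was left out. Rplp2 had 1425, 1302, 1232 and 1265 CPM in WT mice and 1447, 1475, 1153 and 1368 CPM in KIKO mice. Its log2 fold change was 0.06 (adjusted p = 0.857), and it was -0.02 when libraries were scaled by their totals alone.

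**Figure D3:**
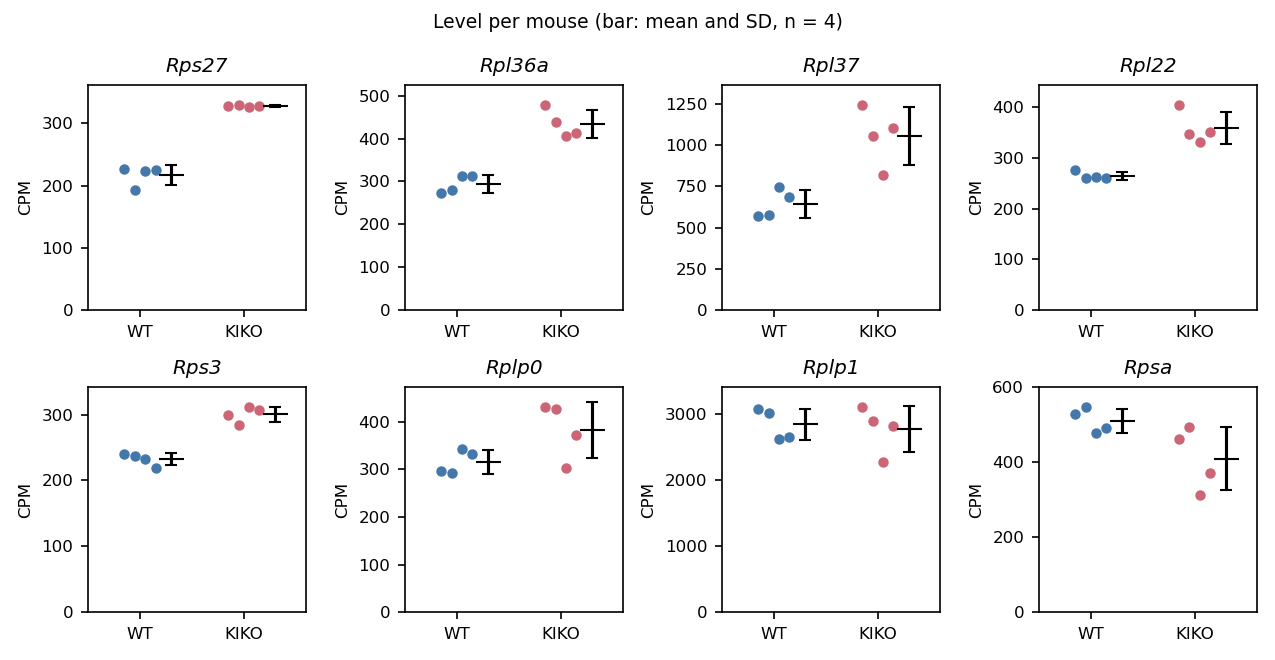
CPM in each mouse for 8 ribosomal protein genes, WT in blue and KIKO in red in the order of mice 1 to 4, with the mean and SD (n = 4) beside the points and axes from 0. The groups are apart for Rps27, Rpl36a, Rpl37, Rpl22 and Rps3, and overlap for Rplp0, Rplp1 and Rpsa, where KIKO 3 is the lowest mouse of all 8 in Rplp1 and Rpsa.

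Rpl5 and Rpl11 bind 5S rRNA together and, when ribosome assembly is disturbed, can hold MDM2 away from p53. Rpl11 had 579, 579, 732 and 712 CPM in WT mice and 931, 778, 739 and 875 CPM in KIKO mice. The groups did not overlap, by a small margin between WT 3 and KIKO 3, and the log2 fold change was 0.35 (SE 0.13, adjusted p = 0.205). Rpl5 had 67.2, 72.7, 80.0 and 85.7 CPM in WT mice and 84.5, 90.7, 79.4 and 91.4 CPM in KIKO mice, with overlap, and a log2 fold change of 0.18 (adjusted p = 0.50). Since 92.5% of the windows of Rpl5 are shared, part of its reads may have been counted elsewhere or dropped. Rpl10, which is added last and shapes the peptidyl transferase centre, had a log2 fold change of 0.43 (adjusted p = 0.170) with overlapping groups. Rpl13a, known also from its release from the ribosome upon interferon signalling, had 0.33 (adjusted p = 0.249), with all KIKO mice above all WT mice. Rpl41, the smallest ribosomal protein, had 0.15 (adjusted p = 0.576), and -0.01 when the length and GC trend of each library was taken out.

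In the small subunit, Rps3 lines the channel through which mRNA enters and is also a DNA repair endonuclease. No 75-base window of its longest principal transcript occurs in an annotated transcript of another gene. Near matches and copies outside annotated transcripts were not searched. Rps3 had 240, 237, 233 and 219 CPM in WT mice and 299, 285, 311 and 307 CPM in KIKO mice. The groups were apart and each was narrow, with 232 ± 9.14 CPM in WT mice and 300 ± 11.6 CPM in KIKO mice. The log2 fold change was 0.37 (SE 0.11, adjusted p = 0.110 by edgeR), which did not pass. Rps19, a gene mutated in Diamond-Blackfan anaemia, had 450, 405, 556 and 501 CPM in WT mice and 755, 639, 611 and 698 CPM in KIKO mice, without overlap, and a log2 fold change of 0.50 (adjusted p = 0.0924). Rps27a, which is made as a fusion with ubiquitin, had 79.6, 96.0, 98.7 and 133 CPM in WT mice and 141, 135, 156 and 142 CPM in KIKO mice. Its groups lay next to each other without overlap, and the log2 fold change was 0.49 (adjusted p = 0.113).

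Rps6, the protein that S6 kinase phosphorylates downstream of mTOR, was counted at a very low level. It had 7.61, 6.36, 4.69 and 12.4 CPM in WT mice and 8.25, 7.59, 10.7 and 9.67 CPM in KIKO mice, from 14 to 37 counts per library. Of its windows 84.1% are shared with other genes. With a log2 fold change of 0.23, a standard error of 0.28 and an adjusted p of 0.732, a difference of the size seen in the other genes was not detectable at this depth.

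Rpsa, the 40S protein that also acts as a laminin receptor, was the only small subunit gene with a log2 fold change below 0. It had 528, 547, 477 and 491 CPM in WT mice and 463, 494, 312 and 371 CPM in KIKO mice. KIKO 3 and KIKO 4 were the lowest of all mice, and KIKO 2 lay within the WT range. The log2 fold change was -0.32 with a standard error of 0.14 and an adjusted p of 0.293 by edgeR, so the difference did not pass. The large subunit genes with the lowest values were Rpl19, at -0.08 (adjusted p = 0.820), Rpl38, at -0.04 (adjusted p = 0.883), Rplp1, and Rpl14, at -0.03 (adjusted p = 0.917). The values of these 4 were smaller than their standard errors, and those of Rpl14 and Rpl38 changed sign when WT 1 and KIKO 3, respectively, were left out.

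The relatives of usual subunits could be compared with the gene they resemble. Rpl22, an RNA-binding large subunit protein, had 277, 260, 263 and 260 CPM in WT mice and 405, 348, 332 and 351 CPM in KIKO mice. The WT mice hardly varied, all KIKO mice lay above them, and only 1.42% of its windows are shared. Its log2 fold change was 0.44 (SE 0.11, adjusted p = 0.0848 by edgeR). Its relative Rpl22l1 had 47.2, 46.9, 64.9 and 61.3 CPM in WT mice and 54.8, 58.3, 56.7 and 62.7 CPM in KIKO mice, with overlap, and a log2 fold change of 0.08 (adjusted p = 0.823) that turned to -0.08 with the length and GC trend taken out. The difference between Rpl22 and Rpl22l1 was not tested.

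Rps27l, the p53-responsive relative of Rps27, had a log2 fold change of 0.35 (adjusted p = 0.234), and Rps27rt, a retrotransposed copy, was read by 10 to 28 counts per library. Rpl36al, a relative of Rpl36a, had 0.34 (adjusted p = 0.189) with all KIKO mice above all WT mice. Rpl7 had 0.34 (adjusted p = 0.167) and its relative Rpl7l1 0.01 (adjusted p = 0.972), with the sign of Rpl7l1 negative under scaling by library totals. Rps4x, the X-linked copy, had 0.31 (adjusted p = 0.212). Rpl3 had 0.20 (adjusted p = 0.40) and Rpl39 had 0.27 (adjusted p = 0.255), each with all KIKO mice above all WT mice. The relatives Rpl3l, a striated muscle form, Rpl10l, a testis form, and Rpl39l were the 3 genes not tested: Rpl10l had no count in any library, Rpl39l had 1 count in each of 3 libraries and Rpl3l had 2 counts in WT 3 alone. Rps19bp1, which matches the name rule but encodes a nucleolar protein that binds RPS19, had 0.05 (adjusted p = 0.897) and -0.02 under scaling by library totals. The 6 large and small subunit relatives that were tested had a median log2 fold change of 0.19 and none passed.

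Levels were compared between genes as mean CPM per kilobase of transcript. In the large subunit Rplp1 was highest, with 5635 CPM per kilobase, followed by Rpl23a with 1635 and Rplp2 with 1383. In the small subunit Rps29 led with 2825 CPM per kilobase, followed by Rps12 with 2391 and Rps14 with 1980. The lowest values were those of Rpl15, with 6.92, and Rps6, with 9.57 CPM per kilobase, and the medians were 280 in the large and 403 in the small subunit. Proteins most of which enter the ribosome in equal numbers were thus counted at levels far apart. These levels depend on how shared reads were assigned and on the longest principal transcript being taken as the length. They also take reads to cover whole mRNAs, which the sources do not state. With reads from mRNA 3′ ends alone, division by length would raise short transcripts in this order. A gene's level per kilobase and its log2 fold change had a Spearman's rho of -0.03 over the 83 genes. The genes at the top differed in their fold changes: Rps14, with 1185, 1224, 1564 and 1161 CPM in WT mice and 2459, 1832, 1403 and 1609 CPM in KIKO mice, had a log2 fold change of 0.51 (adjusted p = 0.167), and Rps12 and Rps29 had 0.19 and 0.33 (adjusted p = 0.499 and 0.221).

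As a share of all counts, the large subunit genes took 1.84%, 1.84%, 1.77% and 1.85% in WT mice 1 to 4 and 2.13%, 2.03%, 1.91% and 2.07% in KIKO mice. The small subunit genes took 1.57%, 1.62%, 1.58% and 1.58% in WT and 1.89%, 1.77%, 1.66% and 1.79% in KIKO mice. In both subunits the lowest KIKO mouse, KIKO 3, was above the highest WT mouse. Together the genes took 3.41% ± 0.05 in WT and 3.81% ± 0.19 in KIKO mice (SD, n = 4 each), and each subunit's share was 1.12 times as high in KIKO mice. A share follows its most abundant genes. In WT 1, Rplp1 and Rplp2, whose fold changes were near 0, held 9734 and 4495 of the 55671 large subunit counts. The counts of the large subunit were 1.15 times those of the small subunit in both genotypes, between 1.12 and 1.17 in WT mice and between 1.13 and 1.16 in KIKO mice, so the balance between the subunits differed by less than the spread between mice. Within WT mice the median coefficient of variation of a gene was 8.59% in the large and 9.97% in the small subunit, beside 17.9% over all tested genes. The genes were not matched by level, and counting noise is larger in genes with fewer counts. Whether ribosomal protein genes varied less than other genes of equal level was not tested.

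**Figure D4:**
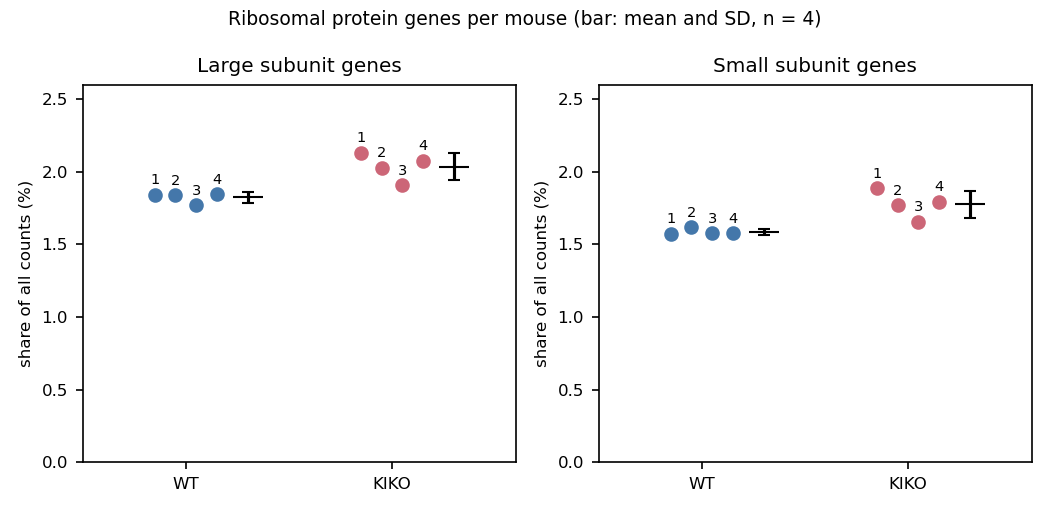
Share of all counts of a library taken by large (left) and small (right) subunit genes, 1 point per mouse with its number, with the mean and SD (n = 4) beside it and axes from 0. The KIKO mice lie between 1.91% and 2.13% in the large and 1.66% and 1.89% in the small subunit, above all WT mice.

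The libraries also differed by transcript length, and ribosomal protein mRNAs are short. The median transcript length was 914 bases in the large and 816 bases in the small subunit, against 3045 bases over all tested genes. Within each library, the Spearman's rho over genes between transcript length and the level relative to the mean of all libraries was 0.249, 0.237, -0.101 and 0.0994 in WT and -0.150, -0.157, -0.0717 and -0.199 in KIKO mice. WT 3 thus lay among the KIKO mice, and WT 1 and WT 2 were at the other end (2-sided exact permutation test of 4 against 4 mice, p = 0.0571, where the smallest possible p is 0.0286). Over all tested genes the log2 fold change fell with length (rho = -0.26 over 11075 genes), and over the 83 ribosomal protein genes rho was -0.22. Of the other tested genes, the shortest decile, up to 1255 bases, had a median log2 fold change of 0.12, which is below the medians of both subunits, and the longest decile had a median of -0.17.

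When the smooth trend with length and GC content was taken out of each library, the median log2 fold change was 0.17 in the large and 0.13 in the small subunit. There were then 37 of 49 and 28 of 34 genes above 0, beside 51.5% of all 11080 tested genes, whose median was 0.01. No ribosomal protein gene passed in this fit, and 36 of all tested genes did. Rpl37 had 0.59 in this fit (adjusted p = 0.0841), Rps27 0.39 (adjusted p = 0.121) and Rpl36a 0.39 (adjusted p = 0.127). The length trend of a library hardly depended on the ribosomal protein genes themselves: without them rho lay between -0.106 and 0.243 in WT mice and between -0.193 and -0.0696 in KIKO mice.

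**Figure D5:**
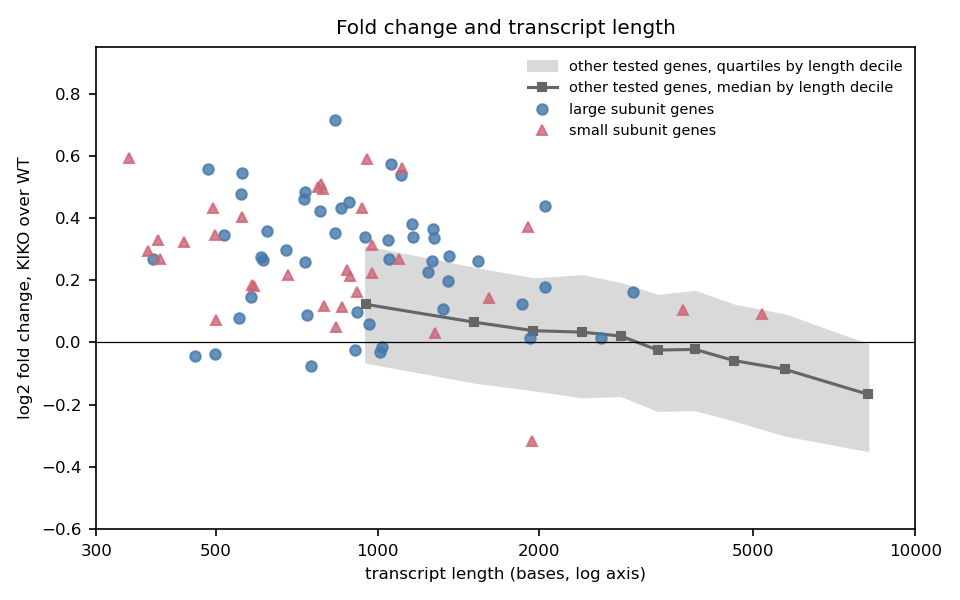
Log2 fold change of KIKO over WT against transcript length in bases on a log axis, for large (circles) and small (triangles) subunit genes. Squares and the grey band give the median and quartiles of the other tested genes by deciles of length, from 0.12 in the shortest to -0.17 in the longest decile. Of the ribosomal protein genes shorter than 1000 bases most lie above 0.12, and Rpsa lies below the grey band.

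Many of these mRNAs resemble transcripts of other genes. A median of 43.7% of the windows of a large subunit gene and 42.2% of those of a small subunit gene occur in another gene's transcript. Limited to genes with at most 25% of windows shared, a choice made after the data were seen, the median log2 fold change was 0.14 over 10 large subunit genes, 8 of them above 0, and 0.15 over 12 small subunit genes, all of them above 0. All KIKO mice were above all WT mice in 4 of these 10 and 4 of these 12 genes, among them Rpl22 and Rps3, against 3.89% of all tested genes. None of them passed. Over the 39 large and 22 small subunit genes with more than 25% of windows shared, both medians were 0.30. All KIKO mice were above all WT mice in 20 and 9 of those, and 2 and 1 of them passed. The genes with few shared windows also include the longest transcripts, those of Rps15a, with 5179 bases, and Rps20, with 3706 bases. The share is taken over the longest principal transcript, so a long transcript can have a low share and still hold many shared windows. Rpl21, with 22.1% of its 1782 windows shared, shares windows with 61 other genes. Over the 83 genes the log2 fold change and the share of windows had a Spearman's rho of 0.20. Rpl7a, with 77.4% of its windows shared, had 83.4, 91.2, 60.2 and 87.7 CPM in WT mice and 62.7, 85.9, 105 and 92.3 CPM in KIKO mice. It was lowest in WT 3 among WT mice and highest in KIKO 3 among KIKO mice, and Rpl17, Rpl19, Rpl35, Rps6 and Rps24 had the same order, Rps24 with only 13.7% of its windows shared. The part of length and of shared reads in the higher values of KIKO mice was not tested beyond these fits.

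Other ribosomal components fall outside the name rule. Fau, which encodes RPS30 fused to a ubiquitin-like protein, had 462, 402, 311 and 396 CPM in WT mice and 329, 364, 301 and 317 CPM in KIKO mice, with overlap, and its log2 fold change was -0.26 (SE 0.13, adjusted p = 0.353 by edgeR). Rack1, a scaffold on the small subunit, had 0.09 (adjusted p = 0.754).

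Genes that work with the ribosome were counted in lists chosen by function, and no gene of these lists passed the test. Among 35 initiation factors 27 had a log2 fold change above 0, with a median of 0.10. Eif3f, a subunit of the scaffold that brings the small subunit to mRNA, had 83.4, 79.6, 85.0 and 87.1 CPM in WT mice and 121, 121, 118 and 105 CPM in KIKO mice, without overlap (log2 fold change 0.48, adjusted p = 0.0703), and Eif4a2, an RNA helicase, had -0.75 (adjusted p = 0.149, overlapping groups). Among 9 elongation and termination factors the median was 0.13, with Eef1b2, an exchange factor of eEF1A, at 0.40 (adjusted p = 0.114) and Eif5a at 0.37 (adjusted p = 0.170). Of 20 other mRNAs with a TOP tract 14 were above 0, with a median of 0.08, less than in either subunit. That difference between lists was not tested.

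The machinery that makes ribosomes showed no common direction. Of 54 ribosome assembly factors 27 were above 0 and the median was 0.00. Imp3, a protein of the early small subunit precursor, had a log2 fold change of 0.72 (adjusted p = 0.0800) with WT 3 and KIKO 3 overlapping. Eif6, which keeps the new large subunit from joining too early, had 61.2, 69.0, 56.9 and 66.0 CPM in WT mice and 48.2, 48.0, 44.4 and 41.6 CPM in KIKO mice, all below the WT mice (log2 fold change -0.48, adjusted p = 0.0896). The median was 0.01 over 12 chaperones and importins of ribosomal proteins, with Heatr3 at -0.38 and Bccip at 0.29 (adjusted p = 0.597 and 0.599). Over 11 genes of RNA polymerase I and its factors 5 were above 0, with Polr1c at 0.37 and Polr1d at 0.24 (adjusted p = 0.278 and 0.372).

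Among 18 genes of mTOR signalling and of the transcription factors of ribosomal protein genes 6 were above 0, with a median of -0.06. Rheb, the GTPase that activates mTORC1, had 22.5, 21.8, 23.4 and 17.1 CPM in WT mice and 30.03, 24.4, 38.2 and 34.6 CPM in KIKO mice, without overlap (log2 fold change 0.59, adjusted p = 0.110). Rptor, the subunit that brings substrates to mTORC1, lay the other way, with 19.97, 21.5, 21.8 and 20.1 CPM in WT mice and 12.2, 9.19, 17.8 and 15.8 CPM in KIKO mice (log2 fold change -0.58, adjusted p = 0.167). Of 13 genes of the p53 response and ribosome quality control 4 were above 0, with a median of -0.04, and Hbs1l, a ribosome rescue factor, and Eif2ak4, the kinase GCN2, had -0.31 and -0.56 (adjusted p = 0.332 and 0.341).

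The libraries held from 2602189 to 3478539 counts. Summed markers of adipocytes ranged from 40093 to 45960 CPM in WT mice and from 50629 to 67171 CPM in KIKO mice, the most abundant of the marker lists, and none of the 12 passed. Macrophage markers summed to 1969 to 2201 and 2203 to 2827 CPM, with Lyz2 of 12 higher (log2 fold change 0.95, adjusted p = 0.0326). Stromal progenitor markers summed to 2637 to 2994 and 3226 to 3846 CPM, with none of 10 passing. Mesothelial markers summed to 288 to 419 and 319 to 607 CPM, with Krt19 and Upk1b of 7 higher, and endothelial markers to 826 to 1093 and 538 to 904 CPM, with Robo4 of 10 lower. Lymphocyte markers overlapped between the groups, at 307 to 514 and 263 to 554 CPM, as did those of skeletal muscle, at 29.98 to 84.6 and 22.0 to 74.6 CPM, where Acta1 alone was tested. Markers of epididymis and testis, next to this depot, summed to at most 1.51 CPM and 9 of 11 were at 0, among them Lcn5, Lcn8, Prm1 and Prm2. The sums follow a few abundant genes, such as Cfd for adipocytes and Dcn for stromal progenitors. By gene, the median log2 fold change was 0.06 over the adipocyte markers, with 7 of 12 above 0, 0.32 over the macrophage markers, with 10 of 12 above 0, and 0.17 over the stromal markers, with 7 of 10 above 0. It was 0.50 over the mesothelial markers, with 6 of 7 above 0, and -0.34 over the endothelial markers, with all 10 below 0. The part of these marker differences in the ribosomal protein values was not tested.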

How the data were processed

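vWAT RNA of 8 mice, 4 WT and 4 KIKO, was analysed from 2 tables of the whole series. The first holds the raw count of each Ensembl gene and was used for the tests. The second, used for 1 alternative, holds the log2 values deposited by the authors, in which each count was scaled by the size factor of its library and 1 was added. According to the paper's methods, trimming was done with Trimmomatic, alignment to GRCm38 with HISAT2 and quantification with StringTie before DESeq2, and the submitters' processing notes list the same tools without StringTie. The labels name a NEGEDIA Digital mRNA-seq library and the paper a TruSeq stranded one, with different sequencers, and the release of the gene annotation is not given in the sources used here. Neither source says how reads with several matching places were counted, or whether reads cover whole mRNAs. Levels per kilobase, the length and GC offset and the shares of windows over whole transcripts all take that coverage as given, and reads from mRNA 3′ ends alone would change their reading.

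Symbols, positions and lengths of the longest principal transcript came from GENCODE M21, in which 31011 of the 31053 genes were found. Counts were tested in edgeR 4.0.16 (R 4.3.3) with TMM normalization, the filter filterByExpr, a quasi-likelihood fit of genotype alone, and Benjamini-Hochberg adjustment over the 11080 genes kept, with a threshold of 0.05. The test was tried on simulated counts first. CPM are TMM-scaled. A window of the longest principal transcript counted as shared when its 75 bases occurred exactly in another gene's annotated transcript on either strand. Alternatives were other scalings and filters, DESeq2 1.42.0, limma 3.58.1, a length and GC offset by mgcv 1.9.3, a replicate block, and each mouse left out. The members and lists were chosen with earlier results of these data known, and no test over a list was run. Genes are named by role, as relatives, by the smallest p or highest level in each subunit, and, in the function lists, by the 2 smallest p. Rps7, Rpl7a, Rpl15, Rpl17, Rpl35, Rps15a, Rps20, Rps24, Fau, Rack1 and the markers given were named after their values were seen. Replicates of a group are separate mice, and no libraries agreed within sampling noise. Some genes, 1 of the 83 tested ribosomal protein genes among them, are not reported here by name or drawn, and they stay in all counts and medians.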

Additional observations from a re-analysis of the deposited data

Results flagged for a closer look

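Of 82 sets of 4 values examined for a mouse far from the other 3 of its group, 6 stood out by Dixon's criterion (the gap to the nearest mouse over the range of the 4), and chance gives about 1 in 20. In WT mice, Rps27 was low in WT 2, at 193 CPM (gap over range 0.883), Rps14 was high in WT 3, at 1564 CPM (0.845), the share of counts of the large subunit was low in WT 3, at 1.77% (0.917), and the share of the small subunit was high in WT 2, at 1.62% (0.928). In KIKO mice, Rpl38 was low in KIKO 3, at 326 CPM (0.875), and Rpl39 was low in KIKO 1, at 172 CPM (0.865). The other WT mice had 223 to 227 CPM of Rps27, and the other KIKO mice had 396 to 406 CPM of Rpl38 and 199 to 204 CPM of Rpl39. Without WT 2 the log2 fold change of Rps27 was 0.54 (adjusted p = 0.108 by edgeR), and without KIKO 3 that of Rpl38 was 0.03, in place of -0.04.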

How the results depend on the processing

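The direction of both subunit medians held under every alternative run. The large subunit median of 0.27 was 0.20 with scaling by library totals, which moved the median of all genes to -0.08, 0.17 with the length and GC offset, and 0.14 over genes with few shared windows, and 0.24 to 0.31 with 1 mouse left out. The small subunit median of 0.27 was 0.13, 0.15 and 0.23 to 0.30 under the last 3. The counts were less stable. The 75 genes that passed became 382 without a filter, 260 with DESeq2, 40 with limma-voom, 45 with limma on the authors' log2 values, 36 with the length and GC offset, and 0 to 654 with 1 mouse left out (654 without WT 3, and 0 without WT 2, WT 4 or KIKO 4). The 2 large subunit genes became 5 without a filter, 13 with DESeq2, 1 with library totals and with the authors' log2 values, 0 with the length and GC offset, and 0 to 11 with 1 mouse left out. The 1 small subunit gene became 5, 8, 0 and 0 to 8 without a filter, with DESeq2, with the offset and with 1 mouse left out. The cause of these changes was not tested.

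Same-numbered mice did not deviate together (correlations of -0.15, -0.13, -0.11 and 0.03), so the numbers did not pair them. With the replicate block 0 genes passed, 0 of them ribosomal protein genes, and 1427 had an unadjusted p under 0.05, against 1794 without it.

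Signs turned only in genes near 0. With the length and GC offset Rpl22l1 had -0.0790, Rpl41 -0.0135, Rplp2 -0.0674 and Rps19bp1 -0.0686. With library totals Rpl7l1 had -0.0583, Rplp2 -0.0177 and Rps19bp1 -0.0161. With 1 mouse left out Rpl14 ranged from -0.0691 to 0.0104, Rpl38 from -0.0729 to 0.0299, Rpl7l1 from -0.0623 to 0.12, Rplp1 from -0.0934 to 0.0524 and Rps19bp1 from -0.0321 to 0.15. The shares of counts and the length trend kept their direction with 1 mouse left out, and the shares also without mitochondrially encoded genes and with -ps symbols.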
